A study of Mus musculus with 15 samples.

Results

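The insulin and IGF signaling genes described here are 10 genes, Igf1, Igf1r, Insr, Irs1, Igfbp3, Igfbp4, Igfbp5, Igfbp6, Igfbp7 and Akt2, read in the gastrocnemius, a fast calf muscle. They were chosen by name out of 12393 genes named alone by a probe set, and every probe set that the platform annotation gives to 1 of these symbols alone was taken, which gave 23 probe sets of the 22690 in the table. A probe set is a group of short probes that reads 1 transcript, mostly near its 3' end, and its intensity is a brightness that can be set against itself between mice but not against another probe set. The muscles came from 15 male C57BL/6NHsd mice, singly housed, each read on a MOE430A array of its own. There were 5 young mice aged 5 months, 5 old mice aged 25 months, both on the normal diet, and 5 old mice aged 25 months on lifelong caloric restriction (old CR). The normal diet was itself somewhat below free feeding, and the restricted diet was enriched in protein, vitamins and minerals, so the old and old CR mice differ in calories on that background. Whole muscle was extracted, so fewer cells of a type and less RNA per cell cannot be told apart.

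IGF-1 is a growth factor made by the liver and, locally, by muscle, where it is known to promote protein synthesis and fiber growth. It binds the IGF-1 receptor, a tyrosine kinase closely related to the insulin receptor, and both receptors pass the signal through the docking protein IRS-1 to phosphoinositide 3-kinase and the kinase Akt, which drives glucose uptake and mTOR and holds back the FoxO factors. The secreted IGF binding proteins hold most IGF-1 outside cells and can either block or prolong its action.

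After CR, transcripts of the growth factor and of a pair of binding proteins were lower than in old mice on the normal diet, while no probe set of the receptors, Irs1 or Akt2 passed the test. The lower transcripts were Igf1 (2.28-fold), Igfbp5 (2.63-fold) and Igfbp7 (1.88-fold), each by 1 of its probe sets. All 3 calls were lost with a 3' minus 5' control covariate and with the replicate number as a block. Of all 22626 probe sets tested, 0 passed in the covariate fit and 4 in the block fit. The replicate numbers did not pair the mice, and old CR replicates 6 and 7 drop out of the block fit's contrasts. The call of Igf1 was also lost when any 1 of 7 arrays was left out. Between old and young mice no member passed, and the nearest to the threshold was Igfbp6, lower in the old mice. The upstream sequences of the 3 genes that were lower after CR are shown first, since they are the members on which the CR comparison turns. They are the 250 bases before the listed start of each gene, on the strand of the gene, from RefSeq on GRCm38.p6. The Igf1 window is chr10:87860861-87861110 on the plus strand and lies within the annotated gene, which runs from 87858265 to 87937047. The Igfbp5 window is chr1:72874866-72875115 on the minus strand, next to the gene at 72858065 to 72874865, and the Igfbp7 window is chr5:77408046-77408295 on the minus strand, next to the gene at 77349240 to 77408045. Capitals mark the E box (CANNTG), the motif of basic helix-loop-helix factors such as MyoD.
Igf1: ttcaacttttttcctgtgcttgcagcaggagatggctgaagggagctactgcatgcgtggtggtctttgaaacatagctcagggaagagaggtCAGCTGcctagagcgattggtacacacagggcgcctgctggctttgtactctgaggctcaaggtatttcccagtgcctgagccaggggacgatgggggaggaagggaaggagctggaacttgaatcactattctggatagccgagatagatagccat
Igfbp5: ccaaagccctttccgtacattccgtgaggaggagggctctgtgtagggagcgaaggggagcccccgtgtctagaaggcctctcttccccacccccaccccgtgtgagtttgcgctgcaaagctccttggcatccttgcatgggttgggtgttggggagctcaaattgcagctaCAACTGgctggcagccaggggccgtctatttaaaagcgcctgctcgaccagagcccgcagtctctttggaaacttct
Igfbp7: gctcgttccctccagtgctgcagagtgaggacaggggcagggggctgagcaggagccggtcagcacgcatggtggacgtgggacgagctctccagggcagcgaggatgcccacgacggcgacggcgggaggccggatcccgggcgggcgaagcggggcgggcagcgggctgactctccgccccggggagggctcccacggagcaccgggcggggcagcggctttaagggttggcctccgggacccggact

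An E box was found once before Igf1, as CAGCTG from 157 to 152 bases before the start, once before Igfbp5, as CAACTG from 77 to 72 bases before it, and not before Igfbp7. Of 32851 RefSeq windows of the same length, 66.2% hold an E box. None of these 3 windows holds the TATA box searched (TATAAA, found in 12.4% of windows), the core motif of FoxO factors (GTAAACA, 3.17%) or the STAT motif (TTCNNNGAA, 7.02%), all searched on both strands. The GC content was 52.8% before Igf1, 58.8% before Igfbp5 and 74% before Igfbp7. The only TATAAA in the orientation of its gene among the member windows lay 28 to 23 bases before the start of Igfbp4.

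Before the results, a difference in the arrays themselves has to be given. The control probe sets for Gapdh and Actb read the 3' and the 5' part of each transcript, and the 3' minus 5' log2 difference averaged over both was -0.18 ± 0.14 in young, 0.13 ± 0.09 in old and -0.30 ± 0.08 in old CR mice (SD, n = 5). It separated the old from the old CR arrays without overlap (adjusted p = 0.0179 over 9 two-sided tests, from an exact permutation p of 0.00794, which 5 against 5 cannot go below). Old and young also differed in it (exact permutation test, p = 0.0159, adjusted p = 0.0286). Young replicate 3 stood apart from its group, with 0.06 against -0.28 to -0.18 in the other young mice and 0.05 to 0.27 in the old mice. Muscle fiber markers were bright on every array. The sum over 10 markers was 257996 to 287426 in young, 204283 to 274308 in old and 230033 to 324128 in old CR mice, and the dimmest marker on average, Myh1, a fast myosin, had a mean of 15840.2. All 10 markers had lower means in old than in young mice, with a ratio of the summed means of 0.892, and all 10 had higher means in old CR than in old mice, with a ratio of 1.22 (exact permutation test, p = 0.0397, adjusted p = 0.132 over 30 tests). Myh1 alone of the 10 passed in old CR against old mice, with a log2 difference of 0.52. The part of the fiber markers in the differences below was not tested. Array medians differed between groups by at most 0.09 on the log2 scale.

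To find which of these genes differ with the diet, old CR mice were compared with old mice. Of the 23 probe sets, 3 passed at an adjusted p under 0.05 (limma, adjusted over all 22626 probe sets tested), all 3 lower in old CR. Among all probe sets, 4.87% passed in either direction and 2.17% were lower. The 1102 calls behind the first share became 462 without old replicate 2 and 1657 without young replicate 3, the extremes over the 15 arrays left out in turn. Groups did not overlap for 4 member probe sets, 1 higher and 3 lower in old CR, where 8.89% of all probe sets had groups that do not overlap. The median log2 difference of the 23 was 0.08, against 0.06 over all probe sets, so the members as a whole were not lower.

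Igf1, the ligand, was read by 3 probe sets. With 1437401_at the intensities in old mice were 698, 804, 887, 595 and 875, and in old CR mice 340.2, 455, 279.9, 268 and 364. Every old CR mouse was below every old mouse. The mean was 341 ± 75.0 in old CR and 772 ± 124 in old mice (SD, n = 5), a log2 difference of -1.19 (SE 0.28, 95% interval -1.78 to -0.59, adjusted p = 0.0303). Young mice spread over the range of both, with 839, 368, 1196, 568 and 452, and the highest was young replicate 3. Leaving out any 1 of old CR replicates 2, 5, 6 and 7 or old replicates 2, 3 and 5 ended the call, with adjusted p of up to 0.0669.

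The other Igf1 probe sets did not pass. For 1419519_at the values were 284 to 444 in old mice and 295 to 618 in old CR mice, a log2 difference of 0.14 (95% interval -0.41 to 0.69). For 1452014_a_at they were 295 to 543 and 301 to 407, a log2 difference of -0.15 (95% interval -0.55 to 0.24). Neither interval reaches the estimate of -1.19 of 1437401_at.

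Igfbp5, a binding protein made in muscle and connective tissue, had the largest log2 difference of the members that passed. With 1452114_s_at the old mice had 8520.5, 8187, 7594, 6055 and 7043, and the old CR mice 2199.8, 2993, 3077, 3006 and 2972. Every old CR mouse was below every old mouse, with a wide gap between 3077 and 6055. The means were 7479.7 ± 977 and 2849.6 ± 365 (SD, n = 5), a log2 difference of -1.39 (SE 0.19, 95% interval -1.79 to -0.99, adjusted p = 0.00511). The young mice had 5301, 4897, 7839, 4311 and 3645, all above the old CR mice, and young replicate 3 was again the highest. Its other probe set, 1422313_a_at, was also lower in old CR on average, at 501 ± 148 against 703 ± 219, but the groups overlapped and the log2 difference of -0.50 (95% interval -1.11 to 0.11) did not pass.

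Igfbp7, a secreted protein with low affinity for IGF-1 that is abundant in vessel walls, was lower by 1423584_at. The old mice had 4572, 6225, 6289, 5827 and 8804, and the old CR mice 3392, 3133, 3385, 3511 and 3060.2. The old CR mice lay close together and all below the lowest old mouse. The means were 6343 ± 1539 and 3296 ± 191 (SD, n = 5), a log2 difference of -0.91 (SE 0.19, 95% interval -1.32 to -0.51, adjusted p = 0.0197). In the young mice the values were 3781, 4553, 7592, 4642 and 4846, with replicate 3 the highest. The other probe sets of Igfbp7 were dim, at 15.5 to 163 for 1423585_at and 28.1 to 72.2 for 1437804_at over all 15 mice, and their log2 differences were 0.69 (95% interval -0.28 to 1.66) and 0.16 (95% interval -0.33 to 0.65).

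**Figure D1:**
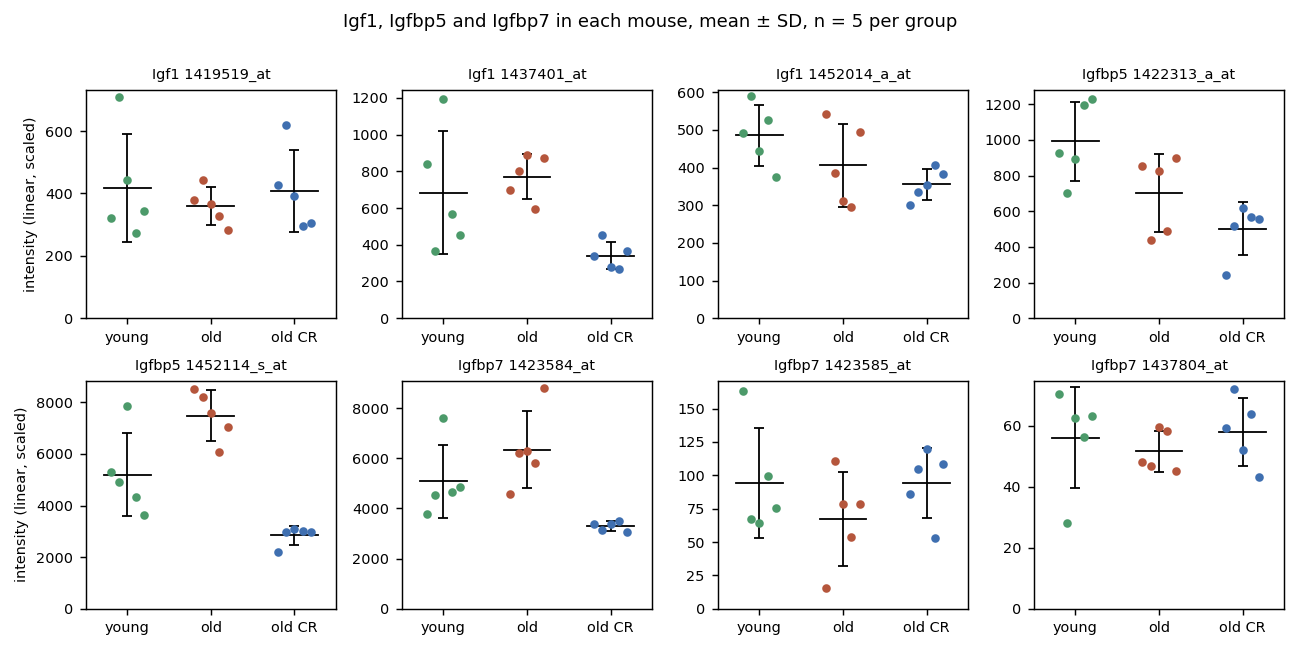
Scaled linear intensity of each probe set of Igf1, Igfbp5 and Igfbp7 in the 15 mice, 1 point per mouse, with a line at the group mean and a bar of 1 SD (n = 5 per group). In 1437401_at, 1452114_s_at and 1423584_at every old CR mouse lies below every old mouse, and in the other 5 panels the old and old CR mice overlap.

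The disagreement between probe sets of a gene was put to a test of its own, added after the values were seen. For the 7 genes with several probe sets, the log2 ratio of the brightest to the mean of the others was compared between groups over the mice, which gave 21 exact permutation tests. None passed after adjustment, and the smallest adjusted p was 0.0668. With 5 against 5 mice a complete separation of a single ratio would reach only 0.167 after adjustment over the 21. Igf1 had a ratio of 1.03 ± 0.30 in old against -0.15 ± 0.23 in old CR mice (SD, n = 5), and that of Igfbp7 was 6.85 ± 0.42 and 5.51 ± 0.27. Both ratios separated old from old CR without overlap (exact permutation p = 0.00794, the smallest possible, adjusted p = 0.0668). For Igfbp5 the ratio was 2.37 ± 0.65 in young, 3.47 ± 0.48 in old and 2.57 ± 0.35 in old CR mice. Where the probes of each set lie in the transcript was not used here.

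The 3' minus 5' control difference is set here beside the called probe sets, which were picked because they differ between the same old and old CR arrays. On all 3 of them young replicate 3, the young array with the highest control difference, had the highest value of the young mice. Old replicate 1 had the highest control difference of the old arrays, 0.27. Its value was the highest of the old mice for Igfbp5 (8520.5), the lowest for Igfbp7 (4572) and below most for Igf1 (698). When the control difference was entered as a covariate, the CR differences became -0.55 (SE 0.57, adjusted p = 0.911) for Igf1, -0.71 (SE 0.34, adjusted p = 0.785) for Igfbp5 and -0.60 (SE 0.40, adjusted p = 0.841) for Igfbp7. In that limma fit 0 of the 22626 probe sets passed in old CR against old and 1461 had an unadjusted p under 0.05, 1 of them a member. The old and old CR arrays do not overlap in the control difference, so it cannot be told apart from the diet within these groups.

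**Figure D2:**
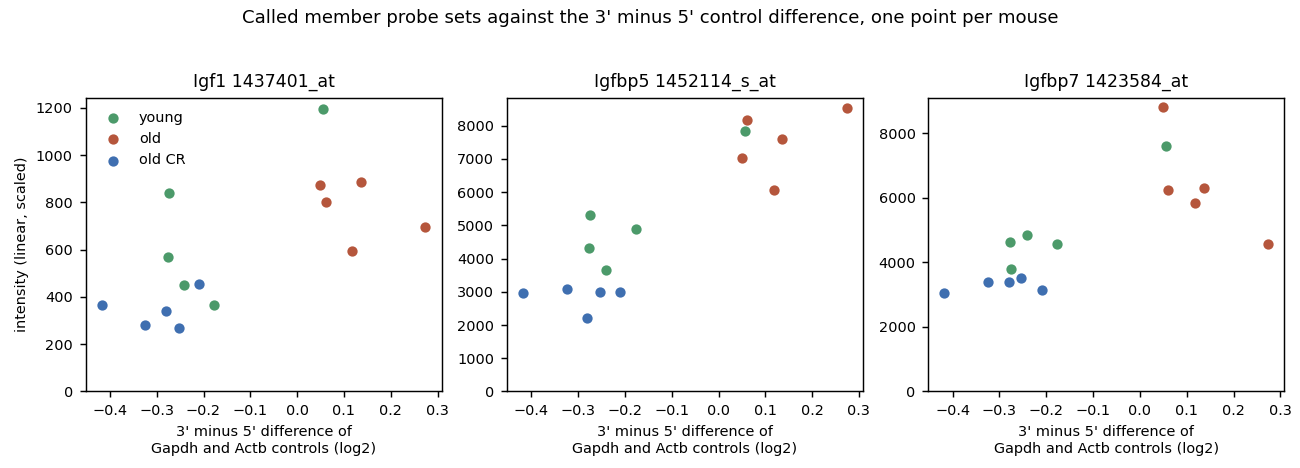
Scaled linear intensity of the 3 called member probe sets against the 3' minus 5' log2 difference averaged over Gapdh and Actb controls, 1 point per mouse, coloured by group. Old CR mice lie at -0.42 to -0.21 and old mice at 0.05 to 0.27 on the horizontal axis, and young replicate 3, at 0.06, lies among the old mice.

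The binding proteins that did not pass differed among themselves. Igfbp6, which prefers IGF-2, had 1186, 1297, 1462, 1198 and 1164 in old CR mice and 1082, 1032, 1070.3, 832 and 1007 in old mice by 1417933_at. The old CR mice were all higher, but by a log2 difference of 0.33 (SE 0.14, 95% interval 0.04 to 0.62, adjusted p = 0.172). Igfbp3, the main carrier of IGF-1 in blood, had 159.6 to 264 in old CR and 157 to 382 in old mice, a log2 difference of -0.37 (95% interval -0.84 to 0.10). Igfbp4, a binding protein that mostly blocks IGF action, was read by 6 probe sets, 5 with a higher and 1 with a lower mean in old CR. The one with the smallest unadjusted p was 1421992_a_at, at 1041, 997, 1414, 940.0 and 1079.5 in old CR and 542, 603, 554, 1017 and 869.7 in old mice, a log2 difference of 0.64 (SE 0.28, adjusted p = 0.203). The brightest, 1437405_a_at, differed by -0.14 (95% interval -0.37 to 0.09). The largest difference, 1.26 for 1421991_a_at, had a 95% interval of -0.58 to 3.10, and the old mice alone ranged from 40.1 to 509.8.

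The receptors showed no difference that passed. Igf1r by 1426565_at had 147, 227, 182, 220.1 and 219.8 in old CR and 188, 167, 134, 123 and 169 in old mice, a log2 difference of 0.35 (95% interval -0.04 to 0.73) with overlapping groups. The dimmer 1452108_at ran from 15.0 to 129.5 in old CR and 22.6 to 135 in old mice, with -0.55 (95% interval -1.84 to 0.74). The probe sets of Insr, the insulin receptor, differed by 0.30 (95% interval -0.23 to 0.82) and 0.17 (95% interval -0.36 to 0.69). Irs1 ranged from 991 to 2045 in old CR and 1464 to 2095 in old mice, a log2 difference of -0.14 (95% interval -0.62 to 0.34). Akt2, the Akt form known for insulin-driven glucose uptake, was nearly level by its bright probe set 1424480_s_at, at 2278 ± 273 and 2243 ± 361 (SD, n = 5), a log2 difference of 0.03 (95% interval -0.28 to 0.34). Its dimmer 1421324_a_at had 255, 628, 420.1, 488 and 434 in old CR and 221, 246, 218, 392 and 359 in old mice, a log2 difference of 0.62 (95% interval -0.01 to 1.25). The intervals of the dimmer probe sets of Igf1r and Akt2 reach differences larger than that of Igfbp7.

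**Figure D3:**
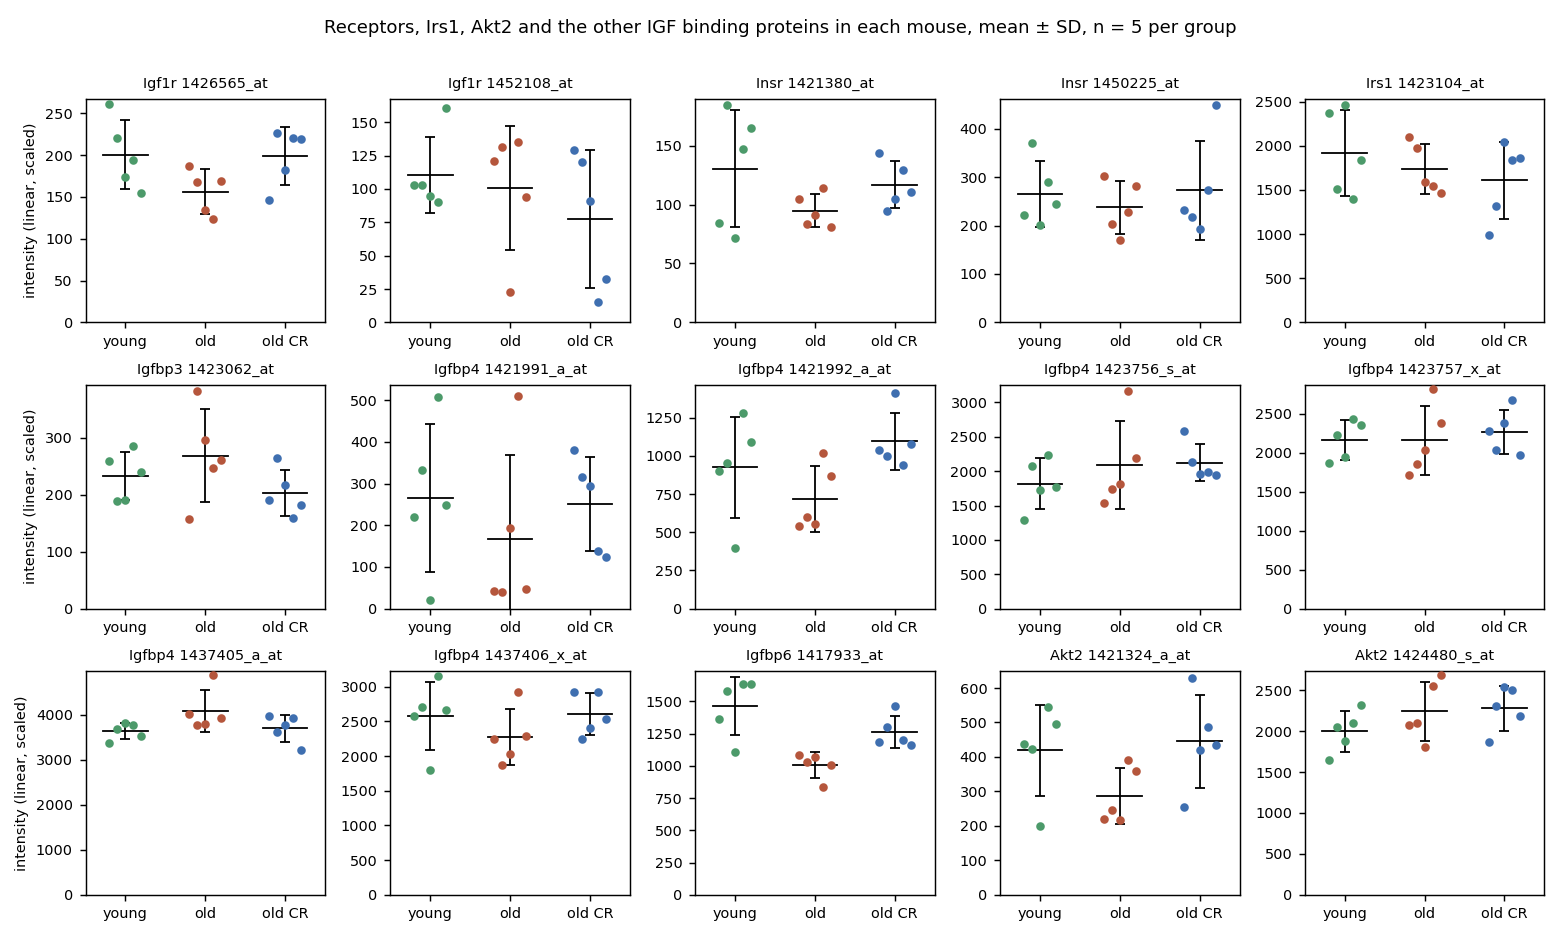
Scaled linear intensity of the 15 probe sets of the receptors, Irs1, Akt2 and the remaining binding proteins in the 15 mice, 1 point per mouse, with the group mean and 1 SD (n = 5 per group; the lower bar of Igfbp4 1421991_a_at in old mice is cut at 0). Igfbp6 is the only panel in which old CR and old mice do not overlap, and also the only one in which old and young mice do not.

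To find which of the genes differ with age, old mice were compared with young mice. None of the 23 probe sets passed (limma), 2 had an unadjusted p under 0.05 and the groups did not overlap for 1. Over all 22626 probe sets 0.265% passed, 15.5% had an unadjusted p under 0.05 and 3.61% did not overlap. The 60 calls behind the first share became 1067 without young replicate 3, 0 without young replicate 1 and at most 45 without any other array. Means were higher in old mice for 7 member probe sets and lower for 16, with a median log2 difference of -0.16 against -0.06 over all probe sets. The paper listed Igfbp3 (1423062_at) and Igfbp5 (1452114_s_at) as higher and Akt2 (1421324_a_at, the dimmer of its probe sets here) as lower in old muscle. By its measure of CR prevention, each of these changes was fully reversed in old CR mice. It used RMA values, a filter on presence calls and an empirical Bayes model, so its values, filter and test differ from those here.

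Igfbp6 was the member whose groups did not overlap. The young mice had 1365, 1577, 1107, 1636 and 1633, all above the highest old mouse at 1082. The means were 1464 ± 228 and 1005 ± 101 (SD, n = 5), a log2 difference of -0.53 (SE 0.14, 95% interval -0.82 to -0.24, adjusted p = 0.0949). The lowest young mouse was replicate 3, and without it the log2 difference was -0.63 (adjusted p = 0.0112). Igfbp5 by 1452114_s_at was the other probe set with an unadjusted p under 0.05, at 6055 to 8520.5 in old and 3645 to 7839 in young mice, a log2 difference of 0.56 (SE 0.19, adjusted p = 0.166). It passed without young replicate 3 (log2 difference 0.72, adjusted p = 0.0191). With the control difference as a covariate the differences were -0.33 for Igfbp6 (adjusted p = 0.85) and 0.07 for Igfbp5 (adjusted p = 0.981). The other Igfbp5 probe set was lower in old mice on average, by -0.53 (95% interval -1.14 to 0.08).

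Among the signaling members all probe sets of Igf1r, Insr and Irs1 had lower means in old mice, with log2 differences of -0.37 to -0.12, and none passed. That of Igf1r by 1452108_at turned from -0.33 to 0.15 without old replicate 3, and that of Insr by 1450225_at turned above 0 with the 3' minus 5' covariate. Igf1r by 1426565_at averaged 201 ± 41.5 in the young and 156 ± 26.6 in the old group (SD, n = 5), a log2 difference of -0.35 (95% interval -0.74 to 0.03). Akt2 differed by 0.16 (95% interval -0.15 to 0.47) for 1424480_s_at and by -0.52 (95% interval -1.15 to 0.12) for 1421324_a_at. The 3 Igf1 probe sets differed by -0.14, 0.29 and -0.29, with intervals that all include 0.

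Old CR mice were also compared with young mice, a comparison that uses the young arrays in place of the old ones. None of the 23 probe sets passed (limma), 5 had an unadjusted p under 0.05, and 3 did not overlap, all lower in old CR. Over all probe sets 0.0884% passed, 12.1% had an unadjusted p under 0.05 and 3.57% did not overlap. The 3 were the Igfbp5 probe sets, at -1.03 (SE 0.28, adjusted p = 0.17) for 1422313_a_at and -0.83 (SE 0.19, adjusted p = 0.108) for 1452114_s_at, and Igfbp7 by 1423584_at, at -0.59 (SE 0.19, adjusted p = 0.232). The dimmer Igfbp5 probe set had 927, 705, 896, 1198 and 1230.0 in young and 243, 517, 616, 569 and 559 in old CR mice, so that here both probe sets of the gene had the same order. Igf1 differed by -0.90 (SE 0.28, adjusted p = 0.212) for 1437401_at and -0.44 (SE 0.19, adjusted p = 0.36) for 1452014_a_at. Old CR and young arrays overlapped in the 3' minus 5' control difference, and with it as a covariate the differences of the Igfbp5 probe sets were -1.06 (adjusted p = 0.295) and -0.65 (adjusted p = 0.256).

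**Figure D4:**
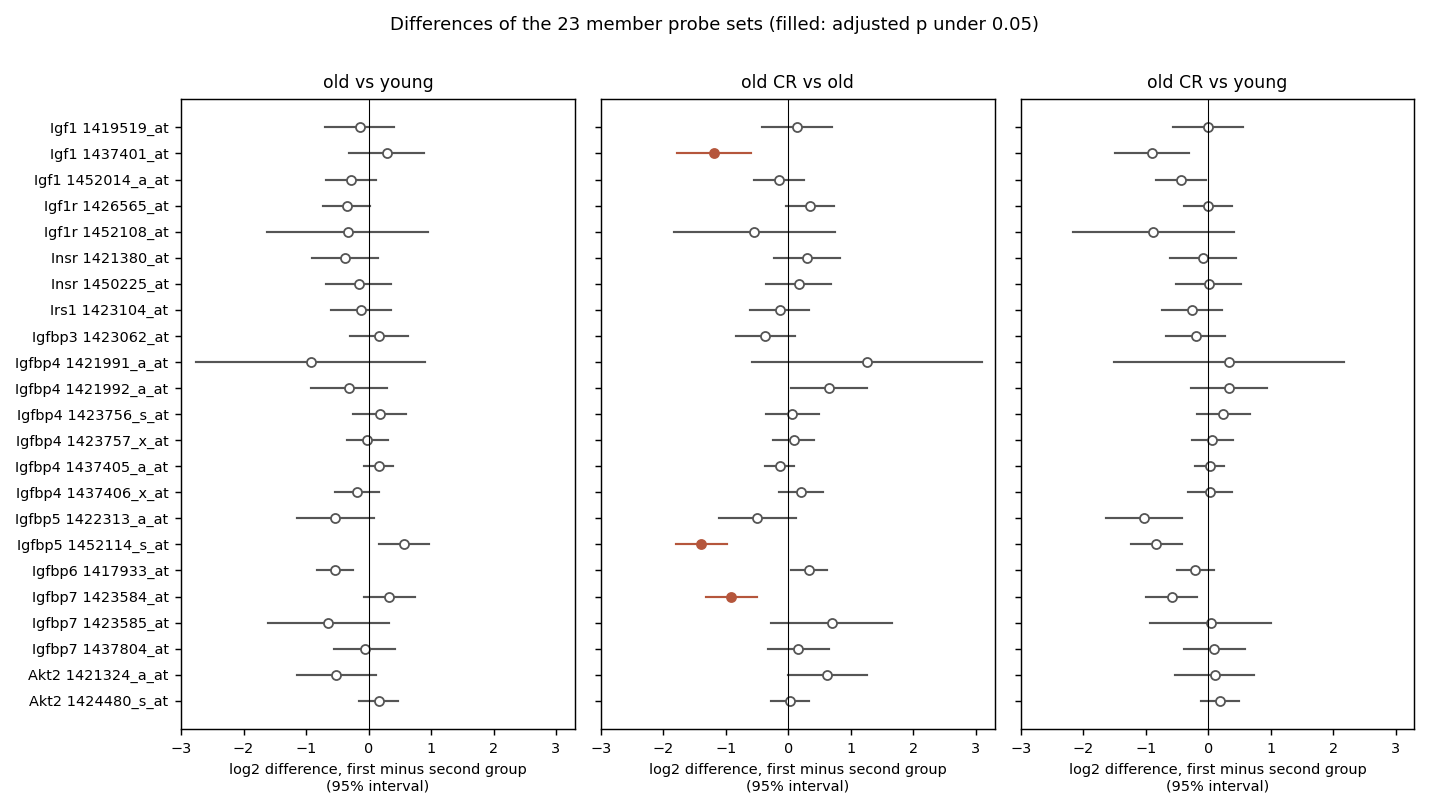
Log2 difference of each of the 23 member probe sets with its 95% interval in old against young, old CR against old and old CR against young mice (5 mice per group). Filled points passed at an adjusted p under 0.05, and they are Igf1 1437401_at, Igfbp5 1452114_s_at and Igfbp7 1423584_at in old CR against old.

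The old arrays stand in both the age and the CR comparison, so a gene's values in them are not independent. Side by side, 1452114_s_at of Igfbp5 had 0.56 with age and -1.39 with CR, 1423584_at of Igfbp7 0.33 and -0.91, 1437401_at of Igf1 0.29 and -1.19, and Igfbp6 -0.53 and 0.33. The probe sets whose pattern over the 15 mice was nearest to a called member, were found by the root mean square difference of centered log2 values, a description that shares the arrays of the calls. For Igfbp5 they were Tab2, an adaptor of inflammatory kinase signaling (0.17), the phosphatase Dusp3 (0.22) and the kinase Hipk2 (0.26), where the SD of Igfbp5 itself was 0.63. For Igfbp7, with an SD of 0.46, they were Dop1b (0.19), the corepressor Trim28 (0.20) and Spry1, an inhibitor of receptor tyrosine kinases (0.20). For Igf1, with an SD of 0.65, they were the transcription factor Nfib (0.31), R3hdm1 (0.31) and Cd93, an endothelial receptor (0.32).

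The rest of the pathway was described from 10 lists of 128 genes, of which 106 had a probe set with 1 symbol, each read by its brightest one. In old CR against old mice 4 of the 106 passed (3.77%, against 4.87% of all probe sets), 1 higher and 3 lower, and the median log2 difference was -0.05 against 0.06. Htra1, a secreted protease known to cleave IGF binding proteins including IGFBP-5, had 1541 ± 144 in old and 707 ± 242 in old CR mice (SD, n = 5) and so fell by 1.22 on the log2 scale (SE 0.26, adjusted p = 0.0201). It was the only one of 10 genes for IGF binding and processing to pass, and 9 of the 10 had higher means in old CR. Its other probe set had -1.60 and did not pass.

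In the list for glucose uptake and glycogen 2 of 15 genes passed by their brightest probe set. Gys1, the muscle glycogen synthase, with means of 2876 ± 339.5 and 3905 ± 335, rose by 0.44 on the log2 scale (SE 0.11, adjusted p = 0.0389), and its other probe set also passed with 1.57. Tbc1d1, which restrains movement of the glucose transporter GLUT4 to the cell surface, with means of 682 ± 137 and 399 ± 92.3, fell by 0.78 (SE 0.21, adjusted p = 0.0471), while its other probe sets had 0.01 and 0.30. Hk2, the hexokinase that traps glucose in muscle, had 4284 ± 785 in old CR and 3055 ± 539 in old mice and did not pass. Among 15 brakes on the pathway, Ppp2ca, the catalytic subunit of a phosphatase that acts on Akt, with means of 5138 ± 754 and 3658 ± 306, fell by 0.48 (SE 0.13, adjusted p = 0.0445), while its other probe set had -0.43 and did not pass. Unlike Htra1, these 3 genes lost their calls when single arrays were left out, Gys1 without 10, Tbc1d1 without 13 and Ppp2ca without 12 of the 15 arrays in turn, and when only the 2 groups were fitted. Ptprf, a receptor phosphatase, had -0.95, with -0.19 and -1.53 by its other probe sets, and Phlpp1, a phosphatase of Akt, -0.40, and neither passed. Some genes of both lists passed only by a probe set other than the brightest (limma). For glucose uptake and glycogen they were Ppp1r3c with 1.39 (adjusted p = 0.0333) and Ppp1cb with 0.48 (adjusted p = 0.0306). In the list of brakes they were Inpp5k with 2.59 (adjusted p = 0.0364), Ptpn11 with 1.92 (adjusted p = 0.0139) and Ptpn1 with -0.55 (adjusted p = 0.0462). Further probe sets did not pass, with -0.10 and 0.28 for Ppp1cb, 1.72 for Inpp5k and 0.50 for Ptpn11. Whether each listed gene acts as a brake in this muscle was not tested. With the 3' minus 5' covariate the log2 differences were -1.22 (SE 0.55) for Htra1, -0.61 for Ppp2ca, -0.42 for Tbc1d1 and 0.33 for Gys1, and with the replicate block -1.47, -0.47, -0.89 and 0.44, and none passed in either fit.

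No gene passed in old CR against old in the lists for ligands and receptors (5 genes measured), the growth hormone axis (6), adapters (14), phosphoinositide 3-kinase (5), Akt and mTOR (16), Ras and MAP kinases (6) and FoxO factors with their known targets (14). The growth hormone axis had lower means for 5 of 6 genes, with the receptor Ghr at -0.39 and the feedback gene Cish at -0.52. The other probe sets of Ghr had -0.19 and 0.55. Of the 5, Stat5a was nearly level at -0.004, and Stat5b had 0.06 by its brightest probe set and 0.71 by its other one. The part of this axis in the Igf1 difference was not tested. Pik3ca and Pik3r2, subunits of phosphoinositide 3-kinase, had -0.56 and -0.61, and the other probe set of Pik3ca had -0.20. Mtor had -0.55 by its brightest probe set and 0.68 by its other one, and its activator Rheb had -0.35. Of FoxO genes the lowest unadjusted p belonged to Sesn3, an inhibitor of mTOR, with -1.09, and to Map1lc3b, an autophagy gene, with -0.33 and with -0.22, 0.20 and a value near 0 by its other probe sets.

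With age none of the 106 passed by its brightest probe set (limma), and 20 had an unadjusted p under 0.05 (18.9%, against 15.5% of all probe sets). Ptpn11 passed by a probe set other than its brightest, with a log2 difference of -2.18 (limma, adjusted p = 0.0326). Its brightest probe set had 0.15 and its remaining one -0.65, and neither passed. Tbc1d1 had a log2 difference of 0.86 by its brightest probe set and -0.10 and -0.35 by the others. Ppp1r3c, a subunit that targets a phosphatase to glycogen, had 0.82 and -0.25. Htra1 had 0.68 and 1.03, Ppp2ca 0.48 and 0.60, and Rheb, with 1 probe set, 0.46. The paper, with other values, filter and test, did list several genes of these lists with age. Among them were Ppp1r3c, Pdk4 and Ptprf as higher and Slc2a4, Stat5b and Ghr as lower in old muscle, some by a probe set other than the brightest here. In old CR against young mice none passed by its brightest probe set either, and 13 had an unadjusted p under 0.05 (12.3%, against 12.1%). Ppp1cb passed there by a probe set other than its brightest, with 0.83 (limma, adjusted p = 0.0129). The median log2 difference over the 106 genes was 0.03 with age and -0.09 in old CR against young mice.

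**Figure D5:**
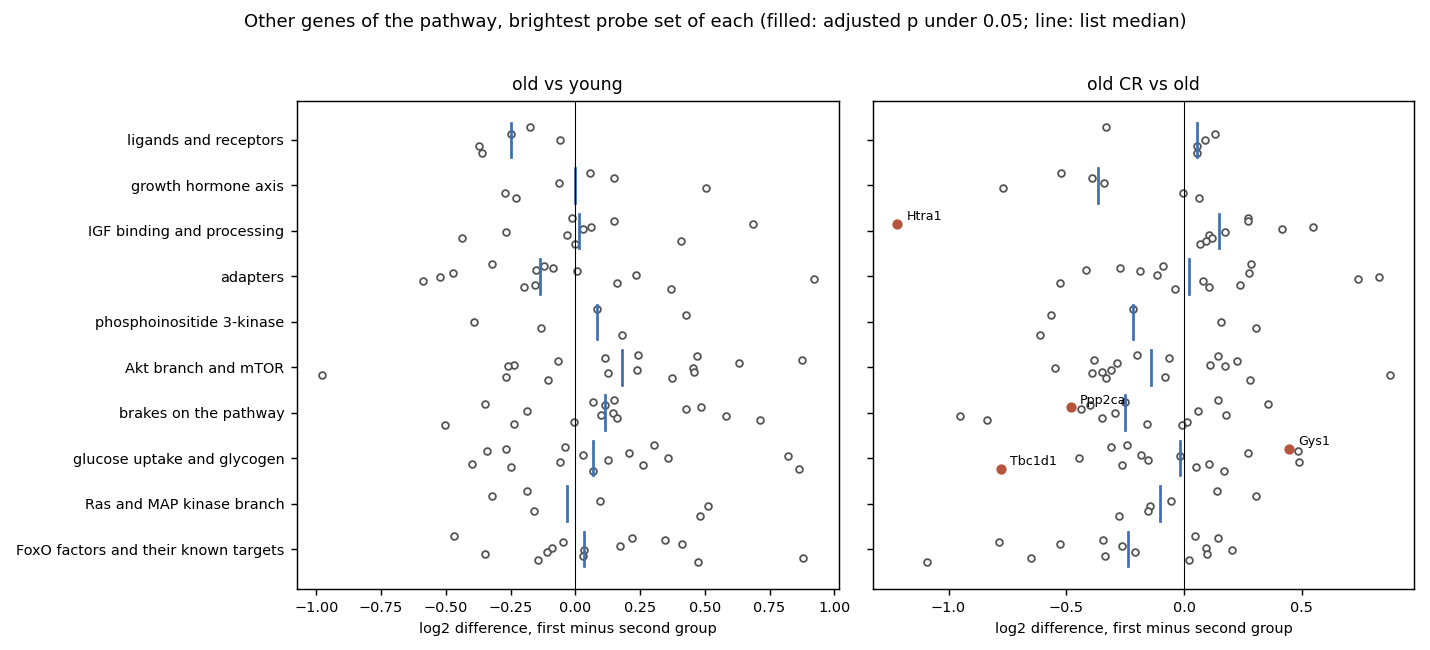
Log2 difference of each of the 106 other pathway genes, read by its brightest probe set, by list, in old against young (left) and old CR against old mice (right), with 5 mice per group. Filled points passed at an adjusted p under 0.05 and a line marks the median of each list, and the 4 genes that passed, Htra1, Ppp2ca, Tbc1d1 and Gys1, are all in the CR comparison.

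Since several binding proteins are known to be made outside muscle fibers, summed marker levels of other cell types are given beside them. Over 10 lists and 3 comparisons no exact permutation test passed after adjustment over the 30 tests, and the smallest adjusted p was 0.119. A complete separation of a single list gives an exact p of 0.00794 and, alone among the 30, an adjusted p of 0.238, so that these tests do not show that the markers were level. The sum of 10 fibroblast markers was 22626 to 36234 in young, 18012 to 27102 in old and 15869 to 20201 in old CR mice, and none of the 10 passed alone in old CR against old. Old CR and young mice did not overlap in it, with a ratio of 0.629 (exact permutation test, p = 0.00794, adjusted p = 0.119), and Col1a2, a collagen chain, was the 1 of the 10 that passed there, with a log2 difference of -1.49, where 0.0884% of all probe sets passed. The 10 endothelial markers summed to 6558 to 6873, 5751 to 7027 and 5424 to 7335, with 1 of 10, Vwf, lower in old CR against old by -1.02. Macrophage markers, 8 in number, summed to 6450.1 to 9532 in old and 4760.2 to 6499 in old CR mice, a ratio of 0.728 (adjusted p = 0.119, exact permutation test). The 8 markers of smooth muscle and pericytes summed to 11276 to 13862 in old and 12177 to 13236 in old CR mice. The 5 adipocyte markers measured summed to 10908 to 17508 and 8295 to 12518, the 7 tendon markers to 4508 to 9949 and 5043 to 8273, the 6 satellite cell markers to 1295 to 1861 and 1141 to 1924, the 3 Schwann cell markers to 3183 to 4521 and 1942 to 3386, and the 5 B and plasma cell markers to 2155 to 6360.2 and 771 to 3382. No marker had a mean of 0, and the dimmest was Myf5, a satellite cell factor, with a mean of 33.9. The part of these cell types in the differences of Igf1, Igfbp5, Igfbp6 and Igfbp7 was not tested.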

How the data were processed

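RNA of 15 gastrocnemius muscles was measured, 1 MOE430A array per mouse. The authors averaged repeat scans of an array and deposited a linear intensity for every probe set. With 2% trimmed from each end, every array has a mean of 500.0, as array-by-array scaling gives, so the deposited intensities are not the RMA values that the methods describe. The submitters' processing notes name RMA and MAS5, with versions not given in the sources used here. Groups came from the labels.

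Values were taken to log2 as they are. Without the 64 control probe sets, 22626 remained, and limma 3.58.1 (R 4.3.3) fitted them in a single model of the 3 groups, with moderated variances without a trend (prior degrees of freedom 2.17). Benjamini-Hochberg adjustment ran over the 22626 p-values of each comparison, and a probe set was called under 0.05. Two-sided exact permutation tests over mice served for single values, run in Python 3.11.15 with SciPy 1.17.1, NumPy 2.4.6, pandas 2.3.3 and Matplotlib 3.10.9. The steps were tested on simulated data. Of the 22690 probe sets the annotation gives 1 symbol to 20393, several to 691 and none to 1606, and upstream windows came from RefSeq (GRCm38.p6), without an entry for Insr.

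The members, lists and tests were chosen with earlier results of these data known. The text names all members, the other pathway genes called in the age or CR comparison, up to 2 more per list with the smallest unadjusted p, and for each called member the 3 nearest of the brightest probe sets. The alternatives were median centering, quantile normalization, the brightest probe sets only (as many as the paper kept), an offset of 50 before log2, the 2 groups alone, a variance trend with robust eBayes, weights for arrays, a block for the replicate number, the 3' minus 5' covariate, an adjusted p under 0.10, any probe set of a pathway gene, and each array left out. The number of arrays limits the precision.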

Additional observations from a re-analysis of the deposited data

Results flagged for a closer look

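Of 69 sets of 5 mice (23 probe sets in 3 groups), 9 held a mouse set far apart from the other 4 by Dixon's test, which chance alone does in about 1 in 20 sets. Old CR replicate 2 was the lowest for both Igfbp5 probe sets, at 2199.8 against 2972 to 3077 for 1452114_s_at and at 243 against 517 to 616 for 1422313_a_at. Young replicate 3 was the lowest at 200.3 against 422 to 545 for Akt2 (1421324_a_at) and at 21.2 against 219.6 to 508 for Igfbp4 (1421991_a_at). Old replicate 4 was the highest for Igfbp4 (1437405_a_at), at 4882 against 3776 to 4021, and the lowest for Igfbp6, at 832 against 1007 to 1082. For Igf1r (1452108_at), young replicate 5 was high at 160.4 against 90.1 to 103 and old replicate 3 was low at 22.6 against 94.3 to 135. For Igfbp7 (1437804_at), young replicate 2 was low at 28.1 against 56.2 to 70.4.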

How the results depend on the processing

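The calls of Igfbp5 and Igfbp7 in old CR against old held whichever array was left out, and that of Igf1 did not. With 1 array left out the member calls in that comparison were 2 to 3 of 23 (8.7% to 13%, against 2.04% to 7.32% of all probe sets). Among the brightest probe sets they were 3 of 17 (17.6%, against 16.5% of all tested there). Under the other alternatives they were 3 of 23 (13%, against 4.27% to 10.1%), except the replicate block and the 3' minus 5' covariate. Those fits each left 0 member calls (limma), where 4 and 0 of all 22626 probe sets passed. They left 5 and 1 member probe sets at an unadjusted p under 0.05. In old against young the main 0 became 1 among the brightest probe sets, 1 with a variance trend, 1 at an adjusted p under 0.10 and 2 with array weights, and 0 to 2 with 1 array left out (2 without young replicate 3). The calls among all probe sets went from 60 to 596, 418, 380, 770 and 1067 under these settings in turn. In old CR against young the main 0 became 1 among the brightest probe sets (5.88%, against 1.96% of all tested there) and 1 with a variance trend (4.35%, against 0.667%). The difference of Igfbp4 (1421992_a_at) in old CR against old changed from 0.64 to -0.77 with the covariate. In that fit 12 of the 23 member probe sets changed sign in old CR against old (all 6 of Igfbp4, both of Insr and of Akt2, Irs1 and Igfbp7 1423585_at), 8 in old against young and 7 in old CR against young. Why these values changed was not tested.

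For the other pathway genes in old CR against old, the 4 calls became 13 of 85 among the brightest probe sets (15.3%, against 16.5% of all tested there). They were 10 with a variance trend (9.43%, against 7.36%) and 9 at an adjusted p under 0.10 (8.49%, against 10.1%). With only the 2 groups fitted 1 passed (0.943%, against 4.55%). With 1 array left out 1 to 6 passed (0.943% to 5.66%, against 2.04% to 7.32%). When any of the 206 probe sets of these genes could pass, 9 genes had a call, which over the 206 is 4.37%, against 4.87% of all probe sets. The replicate block and the covariate each left 0, where 4 and 0 of all 22626 probe sets passed. Htra1 held whichever array was left out, and Gys1, Ppp2ca and Tbc1d1 lost their calls without 10, 12 and 13 of the 15 arrays in turn. In old against young the 0 calls became 4 among the brightest probe sets (4.71%, against 5.47% of all tested there). They were 4 with a variance trend (3.77%, against 1.85%) and 4 with array weights (3.77%, against 3.4%). At an adjusted p under 0.10 there was 1 (0.943%, against 1.68%), and with any probe set 1, Ptpn11 (0.485%, against 0.265%). With 1 array left out they were 0 to 5, with 5 without young replicate 3 (4.72%, against 4.72%). In old CR against young the 0 calls became 1 among the brightest probe sets (1.18%, against 1.96% of all tested there) and 1 with an offset of 50 (0.943%, against 0.398%). With a variance trend there was also 1 (0.943%, against 0.667%), and with any probe set 1 (0.485%, against 0.0884%). Over the 16 single differences followed under 25 alternatives, 329 values kept their direction and side of the threshold, 61 were weaker, 9 stronger and 1 had the opposite sign. These 16 were the member differences with an unadjusted p under 0.05 and the 4 called pathway genes. An uncalled difference that stayed uncalled counts as kept, and the sign changes of the other member probe sets are not in these counts.

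Replicate numbers did not pair the mice. Deviations of same-numbered arrays correlated at -0.28 to 0.09 over 11 pairs, and the best match in another group had the same number in 3 of 22 cases. The replicate block used these numbers all the same and left 0 member calls in all 3 comparisons. Of all 22626 probe sets, 4 passed in that fit in old CR against old and 0 in each other comparison. Old CR replicates 6 and 7 have no partner and drop out of the block fit's contrasts.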
